A study of Mus musculus with 6 samples.

Results

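The subunits of the proteasome, with its activators and assembly factors, were taken as the genes whose symbols begin with Psma, Psmb, Psmc, Psmd, Psme, Psmf or Psmg followed by a digit, without the immunoproteasome subunits Psmb8, Psmb9 and Psmb10. The letters matched 49 of the 19764 genes in the table, and 46 remained after the 3 exclusions. The rule reads symbols only. These 46 members comprised 7 genes of the alpha ring, 8 of the beta ring, 6 cap ATPases, 3 other cap base subunits, 8 lid subunits, 3 cap assembly chaperones, 5 activators, 4 core assembly chaperones, the inhibitor Psmf1 and Psmc3ip. Psmc3ip shares the letters but encodes a meiotic recombination factor, not a subunit. The alpha ring gene Psma6 was not analysed here.

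The proteasome is the barrel-shaped protease that degrades ubiquitin-tagged proteins. Its core particle stacks outer rings of alpha subunits, which gate the entrance, on inner rings of beta subunits, which carry the proteolytic sites. A regulatory cap with an ATPase base and a lid recognises, de-ubiquitinates and unfolds substrates, and alternative activator rings can open the core without ATP. Dedicated chaperones assemble the core and the cap. Liver cells hold abundant proteasomes, and inflammatory cytokines are known to switch catalytic subunits to immunoproteasome forms.

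Primary hepatocytes, cells freshly isolated from the liver, came from Bl6/N mice. All cultures spent 16 h in a low-serum starvation medium with 5 mM glucose and then received 1 µM corticosterone, which activates the glucocorticoid receptor, and 10 µM WY-14643, which activates PPARα, for 8 h. The 3 TNF libraries came from cultures given 1 ng/ml of the inflammatory cytokine TNF together with these ligands, and the 3 Control libraries from cultures given vehicle in its place. The controls were therefore also starved and ligand-treated, and no culture without the ligands is part of the comparison. Polyadenylated RNA was sequenced in paired ends.

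Between 17612060 and 25114289 reads per library fell on genes, and a count of 0 leaves room for up to 3 reads, or 0.124 to 0.166 CPM (read counts scaled to library size). Hepatocyte markers summed to 29647 to 48938 CPM in Control and 28266 to 43999 CPM in TNF, mostly albumin. Of the 6, 4 fell, beside 11.2% of all genes, and 0 passed in the unpaired fit (terms defined below). The 10 macrophage markers summed to 0.290 to 1.17 CPM in Control and 0.161 to 0.909 CPM in TNF, none of them tested, and the 6 lymphocyte and neutrophil markers to less than 1 CPM, with Nkg7 and Ly6g at 0 in all libraries. Endothelial markers summed to 74.8 to 142.7 against 72.0 to 132 CPM, stellate and fibroblast markers to 18.3 to 67.8 against 19.7 to 45.8 CPM, and cholangiocyte markers to 25.3 to 34.9 against 32.4 to 54.4 CPM. Stab2 (1 of 6 tested endothelial markers) and Reln (1 of 4 stellate and fibroblast) fell, and Sox9 (1 of 3 cholangiocyte) rose. Reln held most of its list's sum (means 45.3 of 49.3 CPM in Control) and was higher in TNF in the pair numbered 1. Sox9 likewise held most of its list's sum (22.7 of 30.6 CPM in Control, 35.0 of 42.6 CPM in TNF). Epcam (log2 difference 0.19) and Spp1 (-0.20) did not pass. The part of these cells in the results below was not tested. In bulk RNA of this kind, fewer cells of a type and less RNA per cell cannot be told apart.

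Levels below are CPM, and changes are differences of log2(CPM + 1), TNF minus Control, fitted with limma over all 12276 genes that passed a filter on low reads. A fit with group as its only term is called unpaired, and one that adds replicate number as a blocking term is called blocked. A gene "rose" or "fell" where its Benjamini-Hochberg adjusted p over all genes tested was under 0.05 in the blocked fit. In the plan the unpaired fit was the main test and the blocked fit an alternative. SEs belong to the unpaired fit where nothing else is said. Nothing in the labels ties replicates to different animals or cultures, so p-values measure only the spread among these 6 samples, which may be technical.

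Of the 46 members, 45 passed the filter. In the blocked fit 11 rose, 1 fell and 33 did not pass. Over all genes 9.39% rose and 11.2% fell. The changes were small apart from Psmd10, which was 2.05-fold higher with TNF. In the unpaired limma fit Psmd10 was the only member past the threshold, where 0.432% of all genes passed (0.358% higher and 0.0733% lower). TNF libraries were all higher than all Control libraries for 9 members, against 6.6% of all genes, and all lower for 2, against 6.66%. The log2 difference was above 0 in 36 of 45 members and in 46.1% of all genes. TNF was the higher library in all 3 pairs for 24 members (23.4% of all genes) and the lower in all 3 for 4 (27.7%). Without the pair numbered 2, 32 of 45 members and 47.9% of all genes were above 0. There 8 members rose, beside 850 of all 12158 genes tested. In the authors' deposited table, 11 members were higher and 1 lower at an adjusted p under 0.05 (6.85% and 8.32% of its 19764 genes), and these were the 12 members called in the blocked fit. The log2 difference was below 0.1 in size in 31 of the 45. The median over the members was 0.062, with 0.048, 0.11 and 0.041 in the pairs numbered 1, 2 and 3, and the median over all genes was -0.012. The members' median was 0.101 without Control 1, 0.040 without Control 2, 0.095 without TNF 3 and 0.030 without the pair numbered 2. The median size of the difference, whatever its sign, was 0.069 over the members and 0.093 over all genes. Summed over all members the level was 6992 ± 240 CPM (SD, n = 3) in Control and 7311 ± 197 CPM in TNF, a difference of 4.55%. By library the sums were 7248, 6773 and 6955 CPM in Control and 7514, 7297 and 7121 CPM in TNF. TNF was higher in each pair, while the groups overlapped.

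Single libraries stood apart over the members. Control 2 held the lowest Control value in 30 of the 45 tested members, against 30.2% of all genes, and Control 1 the highest in 34, against 33.7%. TNF 2, which shares its number with Control 2, was the lowest TNF library in 14, against 31.0% of all genes, and TNF 1 was the highest in 27, against 31.5%.

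**Figure D1:**
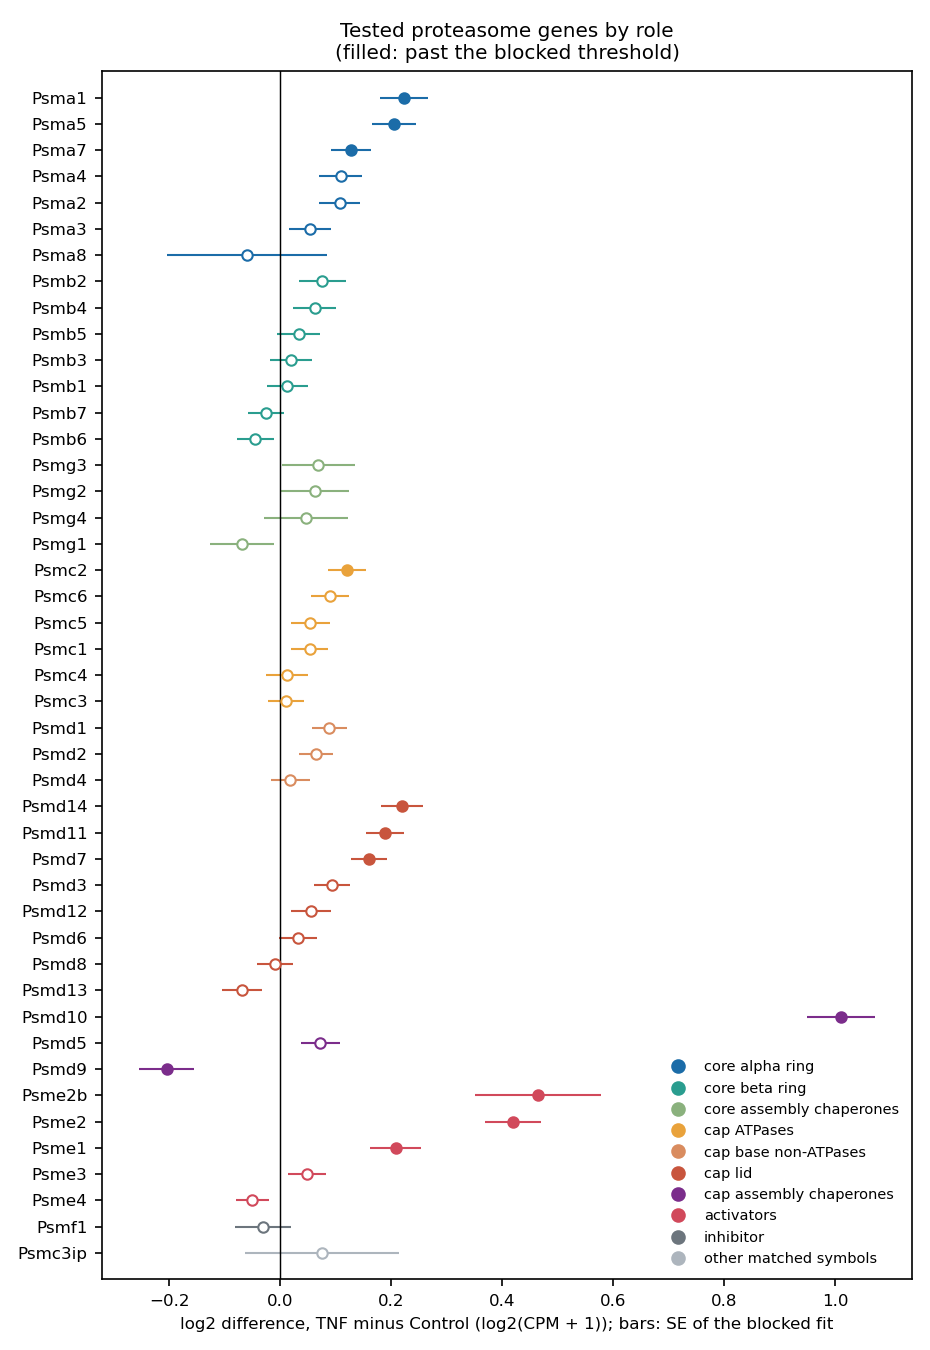
Log2 difference (TNF minus Control, log2(CPM + 1)) of the 45 tested members on the horizontal axis, by role on the vertical axis. Bars are the SE of the blocked fit, and filled points are genes past the blocked threshold. Psmd10 stands at 1.01, and the other 44 lie between -0.20 and 0.47.

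The promoters of Psmd10, Psme2 and Psma1 are shown because, with Psme2b, these genes had the largest log2 differences among the members that passed the blocked threshold. The Psme2b window lies inside an annotated exon and is not printed. The letters are RefSeq's for build GRCm38.p6, from upstream of each start, trimmed to bases outside annotated exons and read 5′ to 3′ on the gene's strand. Capitals mark the CCAAT box (CCAAT, or ATTGG where it lies on the other strand). The stretches are chrX:140956729-140956906 (Psmd10), chr14:55591114-55591351 (Psme2) and chr7:114276119-114276366 (Psma1), all on the minus strand.
Psmd10: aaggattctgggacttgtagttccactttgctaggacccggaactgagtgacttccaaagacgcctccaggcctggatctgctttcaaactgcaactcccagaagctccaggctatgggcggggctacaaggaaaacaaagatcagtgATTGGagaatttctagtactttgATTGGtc
Psme2: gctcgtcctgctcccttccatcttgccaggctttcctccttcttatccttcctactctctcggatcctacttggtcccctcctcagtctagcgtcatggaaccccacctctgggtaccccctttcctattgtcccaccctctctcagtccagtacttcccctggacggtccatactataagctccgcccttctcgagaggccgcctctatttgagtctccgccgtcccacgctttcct
Psma1: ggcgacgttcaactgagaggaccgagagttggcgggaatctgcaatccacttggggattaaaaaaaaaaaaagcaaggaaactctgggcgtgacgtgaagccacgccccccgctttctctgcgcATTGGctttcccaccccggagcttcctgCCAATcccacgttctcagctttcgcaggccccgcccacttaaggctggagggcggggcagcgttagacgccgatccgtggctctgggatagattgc

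Psmd10 and Psma1 each hold a pair of CCAAT boxes in these stretches, and Psme2 holds none of the motifs searched. Of the 46 members, 38 had a promoter in the RefSeq table, and matches were sought on both strands in the 250 bases before the start. The ETS core CCGGAAG was present in 12 of the 38 (31.58%) and in 9.76% of all 15041 promoters. CCAAT was present in 13 of 38 (34.21%) and in 35.78% of all. The antioxidant response element core TGACNNNGC, bound by Nfe2l1 and Nfe2l2, was present in 5 of 38 (13.16%) and in 10.86% of all. Its holders were Psmb5, Psmb6, Psmc6, Psmd12 and Psmd9, of which Psmd9 fell and the others did not pass. The core of the interferon-stimulated response element was in 3 of 38 against 3.03% of all, the STAT site TTCNNNGAA in 1 against 6.74%, and the NF-kappaB site in 1 (Psmd12) against 4.26%. Among the 10 members that rose and had a promoter, 5 held CCAAT, 2 held the ETS core and 0 held any of the other 4 motifs. Motifs were searched as letters only and may overlap one another.

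The cap assembly chaperones bind the ATPase subunits while the cap base forms and are absent from the finished cap. Of the 3 tested, Psmd10 rose, Psmd9 fell and Psmd5 did not pass. Psmd10, also known as gankyrin, was at 31.5, 27.1 and 25.9 CPM in Control 1, 2 and 3 and at 58.4, 62.7 and 52.2 CPM in TNF 1, 2 and 3. Every TNF library was far above every Control library. The mean went from 28.2 ± 2.96 to 57.8 ± 5.24 CPM (log2 difference 1.01, SE 0.11 unpaired and 0.061 blocked). The limma adjusted p was 0.0120 unpaired and 5.76e-08 blocked, and the pairs differed by 0.87, 1.18 and 0.98. By log2 difference Psmd10 was number 46 of the 1153 genes that rose and number 24 of the 44 higher in the unpaired fit. The unpaired call was lost without Control 2 (adjusted p = 0.0754), Control 3 (0.0734), TNF 1 (0.0658) or TNF 2 (0.0602). The blocked call held in 9 of 9 alternatives. In the authors' deposited table the log2 fold change of Psmd10 was 1.04.

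Psmd10 lies on the minus strand of chromosome X (mm10, 140948425 to 140956711). Its counted length equalled its whole span of 8287 bases, which includes introns. RefSeq (GRCm38.p6) places a start of Atg4a, an autophagy protease gene on the opposite strand, inside Psmd10 at base 140953845 and another at base 140956907, 196 bases upstream. The table's row for Atg4a lies on chromosome 3. The strand setting of the counting is not given in the sources used here, so reads of such Atg4a transcripts and of Psmd10 cannot be told apart. A further CCAAT match lies 226 to 230 bases before the Psmd10 start, outside the printed stretch.

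Psmd9 was at 42.6, 47.7 and 46.3 CPM in Control 1, 2 and 3 and at 37.8, 40.2 and 40.1 CPM in TNF 1, 2 and 3. All TNF libraries lay below all Control libraries. Psmd9 fell from 45.5 ± 2.597 to 39.4 ± 1.38 CPM (log2 difference -0.20, SE 0.076, limma adjusted p 0.476 unpaired and 0.00898 blocked) and was the only member that fell. The call was lost without replicate 2 (adjusted p = 0.0619). Psmd5, the third chaperone of the base, was at 179, 150.3 and 155 CPM in Control and 190.0, 165 and 155 CPM in TNF, with overlapping groups (log2 difference 0.073, SE 0.10, blocked limma adjusted p 0.187). Per kilobase of principal transcript, the ratio of the Psmd10 level to the Psmd9 level was 1.34, 1.03 and 1.02 in Control and 2.81, 2.83 and 2.36 in TNF. The ratio of the Psmd10 level to the Psmd5 level was 0.537 ± 0.0206 in Control and 1.05 ± 0.112 in TNF (SD, n = 3). Against Psmc4, an ATPase that Psmd10 binds, the ratio was 0.189 ± 0.0190 in Control and 0.384 ± 0.0287 in TNF, with no overlap between groups in any of these ratios.

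**Figure D2:**
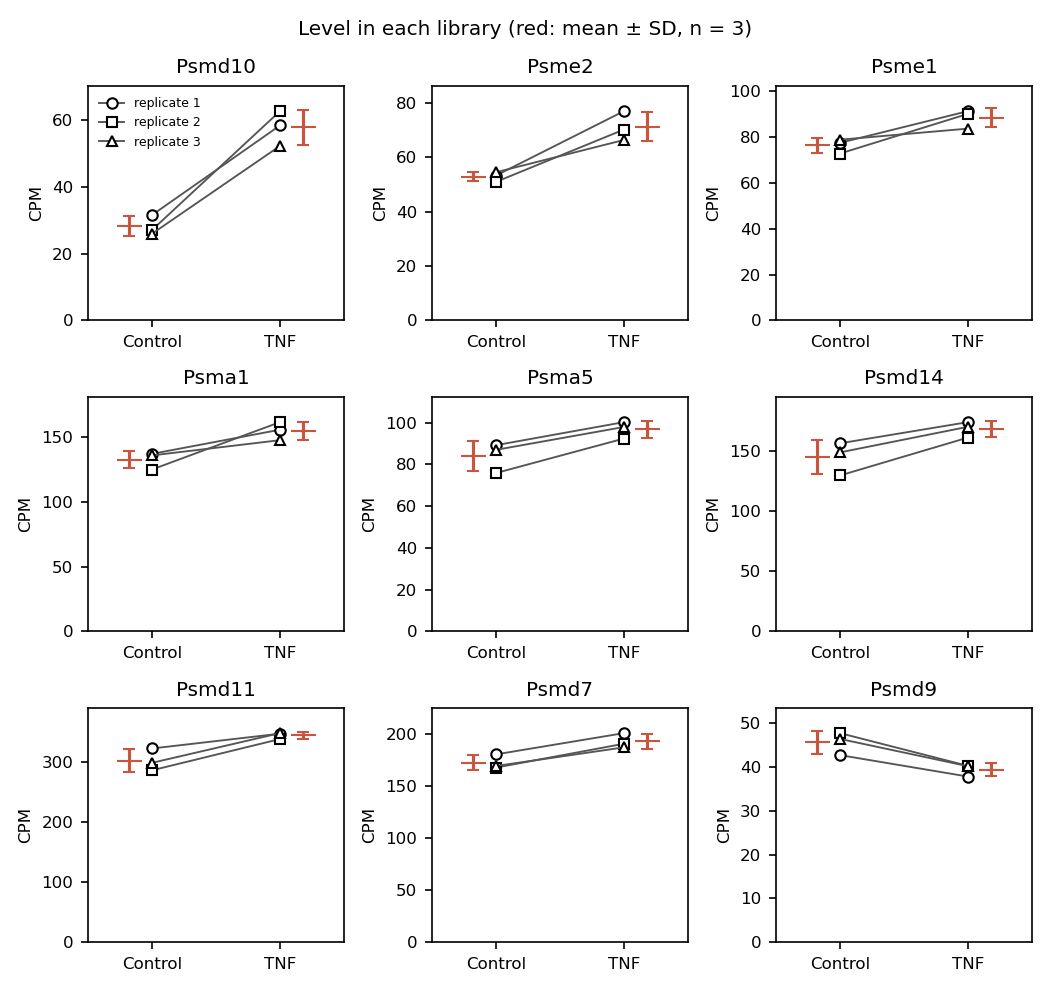
CPM (vertical axis, from 0) in each Control and TNF library of 9 members past the blocked threshold. Lines join libraries with the same replicate number, and red marks give the mean ± SD of 3 libraries. Control and TNF do not overlap in any of the 9 panels, with Psmd9 lower and the other 8 higher in TNF. The 3 other members past that threshold, Psma7, Psmc2 and Psme2b, have overlapping groups and are not drawn.

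The activators are rings or single chains that dock on the core in place of the cap. Of the 5 tested genes, 3 rose and 2 did not pass, beside 9.39% of all genes that rose and 11.2% that fell. The 3 include Psme2b, a retrocopy of Psme2 that can share reads with it. The median log2 difference was 0.21, and 0 of the 5 passed in the unpaired fit. Psme1 and Psme2 encode the alpha and beta chains of one heteromeric ring, known to be induced by interferon gamma and to be linked to antigen processing. Psme2 was at 53.3, 51.0 and 54.5 CPM in Control 1, 2 and 3 and at 77.0, 70.2 and 66.4 CPM in TNF 1, 2 and 3. All 3 TNF libraries were above all Controls. Psme2 rose from 52.9 ± 1.80 to 71.2 ± 5.37 CPM (log2 difference 0.42, SE 0.077), with limma adjusted p 0.0917 unpaired and 3.81e-05 blocked. In the authors' deposited table its log2 fold change was 0.43.

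Psme1 was at 77.4, 72.7 and 78.7 CPM in Control and at 91.2, 90.03 and 83.6 CPM in TNF libraries 1 to 3, again without overlap. It rose from 76.3 ± 3.16 to 88.3 ± 4.10 CPM (log2 difference 0.21, SE 0.068, limma adjusted p 0.386 unpaired and 0.00467 blocked). Per kilobase of transcript the ratio of the Psme1 level to the Psme2 level was 1.26, 1.23 and 1.25 in Control and 1.02, 1.11 and 1.09 in TNF. The chains were thus closer to equal RNA levels in all 3 TNF libraries than in any Control library. The genes are neighbours on chromosome 14 (mm10), Psme1 at 55578494 to 55581527 on the plus strand and Psme2 at 55587440 to 55591101 on the minus strand. A few bases of Psme1 overlap Emc9 and were left out of its counted length, 3030 of 3034 bases.

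Psme2b, a retrocopy of Psme2 on chromosome 11 (48945352 to 48946410), was at 8.12, 4.80 and 5.84 CPM in Control and 10.1, 8.80 and 7.79 CPM in TNF, and the groups overlapped. It rose with a log2 difference of 0.47 (SE 0.19, limma adjusted p 0.545 unpaired and 0.00945 blocked), and the call was lost with no filter on low reads (adjusted p = 0.0726) and without replicate 2 (0.110). The value is uncertain, since reads can be shared with Psme2 and Psme2b overlaps the gene 9930111J21Rik1. Shared reads would also bear on the level of Psme2 and on the ratio of Psme1 to Psme2, which was not tested. Psme3, the nuclear ring that works without ubiquitin, was at 159, 169 and 148 CPM in Control and 165, 180.0 and 148 CPM in TNF (log2 difference 0.049, SE 0.090, blocked limma adjusted p 0.359). Psme4, a large single-chain activator, had a log2 difference of -0.050 (blocked limma adjusted p 0.284). Groups overlapped for both.

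Alpha subunits form the outer rings whose tails gate the core. Of 7 tested, 3 rose, 0 fell and 4 did not pass in the blocked limma fit, where 9.39% of all genes rose and 11.2% fell. In the unpaired limma fit 0 passed, and 2 of 7 were under an unadjusted p of 0.05, against 8.77% of all genes. Unpaired limma-voom also called 0. The median log2 difference was 0.11. Psma1 was at 137, 125 and 136 CPM in Control 1, 2 and 3 and at 155, 161 and 147 CPM in TNF 1, 2 and 3. Psma5 was at 89.2, 75.9 and 87.0 CPM in Control and 100.3, 92.4 and 97.9 CPM in TNF. For both genes the lowest TNF library was above the highest Control library. Psma1 rose by a log2 difference of 0.22 (SE 0.068, limma adjusted p 0.344 unpaired and 0.00217 blocked). Psma5 rose by 0.21 (SE 0.081, limma adjusted p 0.512 unpaired and 0.00193 blocked).

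Psma7 was at 195, 167 and 179.8 CPM in Control and 211, 193 and 188 CPM in TNF, with overlap between groups and a higher value in TNF in each pair. It rose by 0.13 (blocked limma adjusted p 0.0207), a call that was lost with no filter on low reads (0.0701) and without replicate 2 (0.172). Psma2 (0.11, blocked limma adjusted p 0.0609) and Psma4 (0.11, 0.0605) missed the threshold, and both passed under median-of-ratios scaling (0.0444 and 0.0432). Psma3, with the smallest difference of the ring, was at 92.2, 87.7 and 87.2 CPM in Control and 95.5, 92.1 and 89.7 CPM in TNF, and these overlapped (log2 difference 0.054, SE 0.062, blocked limma adjusted p 0.358). Psma8, the alternative alpha subunit of testis, was at 1.88, 1.08 and 0.633 CPM in Control and 1.39, 0.912 and 0.887 CPM in TNF, with overlapping groups.

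Beta subunits of the constitutive core showed differences near 0. In the blocked limma fit 0 of the 7 tested passed in either direction, 0 had an unadjusted p under 0.05, against 31.7% of all genes, and limma-voom with the block also called 0. The median log2 difference was 0.019, and the range was -0.045 to 0.076. Psmb5 carries the chymotrypsin-like site and was at 179.9, 147 and 158 CPM in Control and 174, 162 and 159 CPM in TNF (log2 difference 0.033, SE 0.088, blocked limma adjusted p 0.613). Psmb6, with the caspase-like site, was at 155, 134 and 146 CPM in Control and 150.5, 131 and 139.9 CPM in TNF (-0.045, SE 0.082, blocked limma adjusted p 0.396). Psmb7, with the trypsin-like site, was at 240.3, 206 and 237 CPM in Control and 240.4, 206 and 225 CPM in TNF (-0.026, SE 0.090, blocked limma adjusted p 0.645). Groups overlapped for all 3 catalytic genes.

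Psmb2 had the largest difference of the ring, at 90.04, 79.7 and 82.1 CPM in Control and 91.7, 90.1 and 83.6 CPM in TNF (0.076, SE 0.074, blocked limma adjusted p 0.244). Psmb1 had the smallest, at 149, 138 and 140.1 CPM in Control and 144, 147 and 139.7 CPM in TNF (0.013, SE 0.061, blocked limma adjusted p 0.854). Psmb3 (0.019) and Psmb4 (0.062) lay between them. Psmb11, the beta subunit of the thymus, had 1, 0 and 2 reads in Control 1, 2 and 3 and 1, 1 and 2 reads in TNF, and was not tested.

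The 3 immunoproteasome subunits replace Psmb5 (by Psmb8), Psmb6 (by Psmb9) and Psmb7 (by Psmb10) in newly made cores. Their levels per kilobase of transcript were set against those of the members they replace. The ratio of Psmb10 to Psmb7 was 0.106, 0.100 and 0.0985 in Control and 0.196, 0.214 and 0.194 in TNF, so that the groups did not overlap. The ratio of Psmb8 to Psmb5 was 0.0782, 0.0547 and 0.0739 in Control and 0.0981, 0.0733 and 0.105 in TNF. It was higher in TNF in each pair, while the groups overlapped. The ratio of Psmb9 to Psmb6 was 0.0319 ± 0.00693 in Control and 0.0371 ± 0.00503 in TNF (SD, n = 3), also with overlap. Psmb10 (log2 difference 0.93, blocked limma adjusted p 6.85e-08) and Psmb8 (0.43, 0.000575) rose, and Psmb9 had a difference of 0.17 (0.283). In the unpaired limma fit Psmb10 passed (adjusted p 0.0116) and Psmb8 did not (0.694). In all libraries the 3 constitutive genes kept the higher RNA level of each couple.

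**Figure D3:**
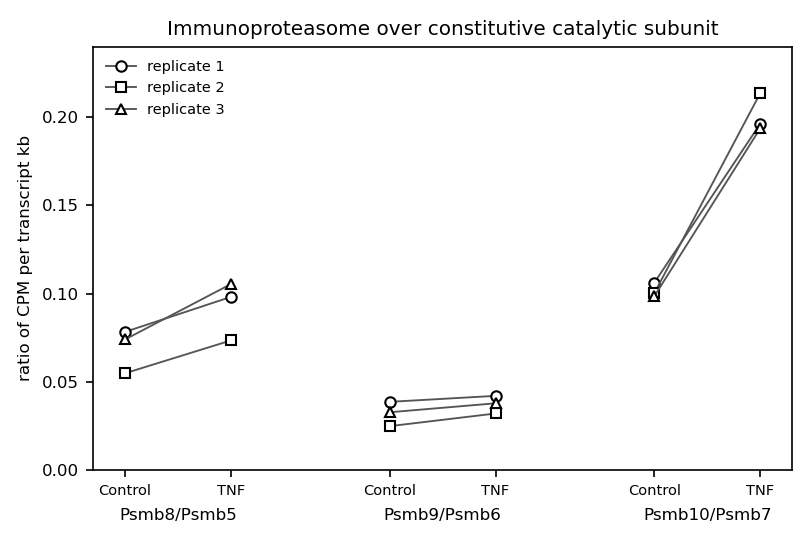
Ratio of CPM per kilobase of transcript (vertical axis, from 0) of each immunoproteasome subunit to the constitutive subunit it replaces, in Control and TNF. Lines join libraries with the same replicate number, and the mean of Psmb10 over Psmb7 is 0.102 in Control and 0.201 in TNF.

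The core assembly chaperones Psmg1 to Psmg4 work as heterodimers that guide alpha ring formation. In the blocked limma fit 0 of 4 passed, 0 had an unadjusted p under 0.05 (31.7% of all genes), and limma-voom with the block called 0. Psmg1 was at 31.8, 33.2 and 31.1 CPM in Control and 29.6, 31.0 and 30.9 CPM in TNF, without overlap and lower in TNF (log2 difference -0.069, SE 0.075, blocked limma adjusted p 0.459). Psmg3 was at 23.1, 23.1 and 19.6 CPM in Control and 24.4, 24.3 and 20.5 CPM in TNF (0.069, SE 0.11, blocked limma adjusted p 0.521). Psmg4 was at 16.3, 16.3 and 16.8 CPM in Control and 16.0, 17.01 and 18.1 CPM in TNF (0.046, SE 0.095, blocked limma adjusted p 0.734), and Psmg2 had a difference of 0.063. Groups overlapped for the latter 3.

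The 6 cap ATPases form the ring that unfolds substrates and threads them into the core. All 6 had a positive log2 difference (median 0.053), as did 36 of the 45 tested members and 46.1% of all genes. In the blocked fit 1 rose, beside 9.39% of all genes, and 5 did not pass. Psmc2 was at 189, 156 and 165 CPM in Control and 203, 177 and 174 CPM in TNF, with overlap between groups but a higher value in TNF in each pair. It rose by 0.12 (SE 0.096, limma adjusted p 0.912 unpaired and 0.0225 blocked), and the call was lost with no filter on low reads (0.0611) and without replicate 2 (0.161). Psmc3, with the smallest difference, was at 184, 159 and 172 CPM in Control and 188, 163 and 168 CPM in TNF (0.011, SE 0.085, blocked limma adjusted p 0.869). Psmc6 (0.090), Psmc1 (0.053), Psmc5 (0.054) and Psmc4 (0.012) lay between them.

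Of the 3 other cap base subunits 0 passed in the blocked limma fit, 1 had an unadjusted p under 0.05 (31.7% of all genes), and limma-voom with the block called 0. Psmd1, a scaffold of the base, was at 264, 258 and 242 CPM in Control and 278, 282 and 252 CPM in TNF (0.089, SE 0.073, blocked limma adjusted p 0.0654, and 0.0493 under median-of-ratios scaling). Psmd4, a ubiquitin receptor, was at 207, 183 and 206 CPM in Control and 213, 193 and 198 CPM in TNF (0.018, SE 0.077, blocked limma adjusted p 0.771). Psmd2, the other large scaffold, had a difference of 0.065. Groups overlapped for all 3.

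The lid removes ubiquitin chains. Of its 8 tested subunits 3 rose, 0 fell and 5 did not pass, beside 9.39% of all genes that rose and 11.2% that fell. The median log2 difference was 0.075, and 0 of the 8 passed in the unpaired fit. Psmd14, the metalloprotease that cleaves the chain, was at 156, 129.6 and 149 CPM in Control 1, 2 and 3 and at 174, 161 and 170.1 CPM in TNF 1, 2 and 3. Psmd7, its structural partner, was at 180.4, 168 and 169 CPM in Control and 201, 191 and 187 CPM in TNF. Both the active subunit and its partner were higher in every TNF library than in any Control library. Psmd14 rose by 0.22 (SE 0.084, limma adjusted p 0.502 unpaired and 0.000750 blocked), and Psmd7 rose by 0.16 (SE 0.064, limma adjusted p 0.518 unpaired and 0.00253 blocked).

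Psmd11, a lid subunit that braces the cap against the core, was at 323, 287 and 299 CPM in Control and 348, 339 and 349 CPM in TNF, without overlap. It rose by 0.19 (SE 0.070, limma adjusted p 0.469 unpaired and 0.00118 blocked). Psmd3 (0.093, blocked limma adjusted p 0.0632) was also higher in every TNF library without passing, and passed under median-of-ratios scaling (0.0440). Psmd8 had the smallest difference of the lid, at 934, 1002 and 946 CPM in Control and 915, 1019 and 932 CPM in TNF (-0.0090, SE 0.089, blocked limma adjusted p 0.887, and 0.0012 in log2 under median-of-ratios scaling). Psmd12 (0.056), Psmd6 (0.033) and Psmd13 (-0.069) did not pass.

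Psmf1, an inhibitor of the core, was at 62.5, 47.2 and 48.2 CPM in Control and 61.1, 43.0 and 50.8 CPM in TNF (log2 difference -0.030, SE 0.15, blocked limma adjusted p 0.738). Psmc3ip was at 0.884, 0.579 and 1.02 CPM in Control and 0.814, 0.698 and 1.28 CPM in TNF (0.075, SE 0.19, blocked limma adjusted p 0.767). Groups overlapped for both.

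Levels differed far more among members than between conditions. Per kilobase of principal transcript (GENCODE mouse release 21), the mean over 6 libraries ran from 0.667 CPM for Psma8 and 0.681 CPM for Psmc3ip, among the tested members, to 622 CPM for Psmd8, with 232 CPM for the next, Psmb4. The other abundant members were Psma7 (207 CPM per kilobase), Psmb7 (194), Psmb5 (181) and Psmb6 (179). The core assembly chaperones lay between 25.5 (Psmg3) and 30.2 (Psmg4) CPM per kilobase, above Psmd9 (16.3), Psmf1 (13.7) and Psme2b (9.04). Psmd10 stood at 19.7 CPM per kilobase in Control, below all 4 core assembly chaperones, and at 40.4 in TNF, above all 4. The median was 179 CPM per kilobase over the beta ring, 73.0 over the alpha ring, 105 over the cap ATPases, 95.8 over the lid and 60.6 over the activators. The alpha ring median includes the testis subunit Psma8 and lacks Psma6, while the beta ring median leaves out the untested thymus subunit Psmb11. These medians are therefore not over like sets. Counted lengths mostly equalled whole gene spans, so reads on introns may be included and these levels per transcript length are approximate.

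**Figure D4:**
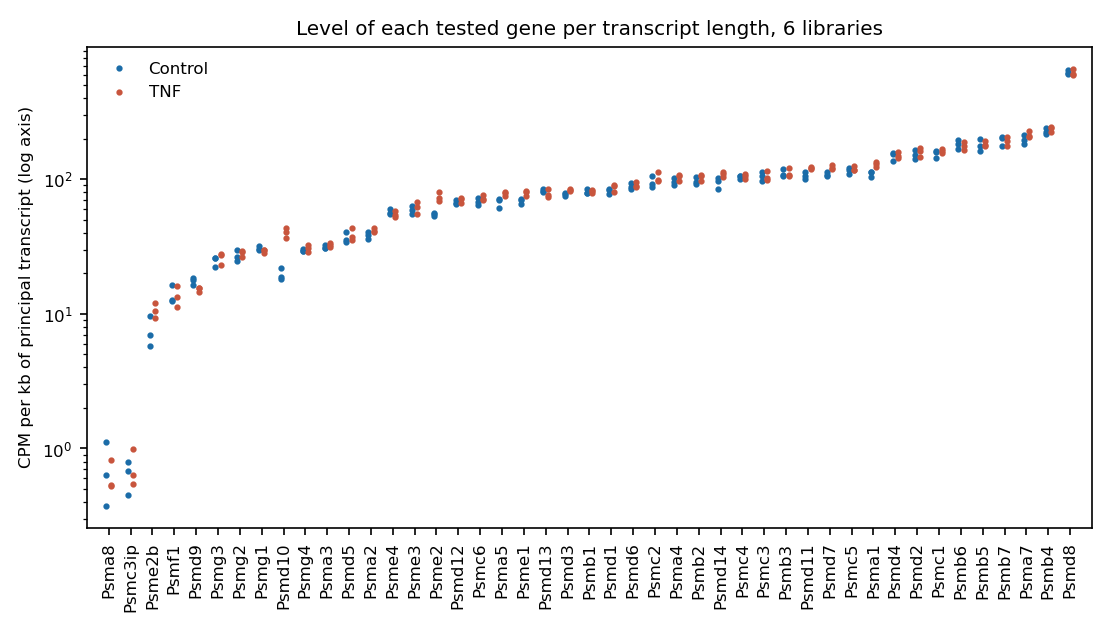
CPM per kilobase of principal transcript (vertical log axis) of the 45 tested members in order of level (horizontal axis), with 1 point per library. Levels run from 0.667 (Psma8) to 622 (Psmd8), and Control and TNF points lie close together for most genes.

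Genes that act with the proteasome were read from 3 lists. Of 21 tested associated factors, 4 rose and 1 fell, beside 9.39% of all genes that rose and 11.2% that fell. The rises were the ubiquitin shuttle Ubqln2 (0.22), the cap-bound deubiquitinase Usp14 (0.19), Zfand2a (0.17), which binds the cap under stress, and the peptidase Tpp2 (0.11). Akirin2, which carries proteasomes into the nucleus, fell (-0.15), and the core maturation factor Pomp had a difference of 0.073 (blocked limma adjusted p 0.271). Of 17 regulators of proteasome genes or of their upstream control, 9 rose, 1 fell and 7 did not pass, beside the same shares of all genes. The median log2 difference of these regulators was 0.13. Nfe2l1, the transcription factor that induces proteasome genes when proteasome activity falls, was at 233, 249 and 205 CPM in Control and 288, 323 and 252 CPM in TNF and rose by 0.32 (SE 0.11, limma adjusted p 0.424 unpaired and 6.50e-06 blocked). Its paralog Nfe2l2 rose by 0.23 and the small Maf partner Maff by 0.43. Irf1, which drives immunoproteasome genes, rose by 0.38, and Bach1, a repressor at antioxidant response elements, by 0.29. Mafg rose by 0.19. Ddi2, the protease that activates Nfe2l1, fell by 0.14 on the log2 scale. Of 6 ubiquitin precursor and E1 genes, 1 rose, the E1 enzyme Uba6 (0.16). The precursor Ubb was counted over only 6 of its 1709 bases, so its value says little about that gene. None of the genes in these 3 lists passed in the unpaired limma fit, where unadjusted p-values under 0.05 numbered 2 of 21, 3 of 17 and 0 of 6, against 8.77% of all genes, and unpaired limma-voom made 0 calls.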

How the data were processed

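PolyA RNA of 3 Control and 3 TNF libraries was sequenced in paired ends. Sample titles gave each library's group and number. Per the submitters' processing notes, STAR 2.6.1a and the mouse build mm10 were used. How reads were counted, against which annotation and with which strand setting is not given in the sources used here. For each of 19764 genes the deposited table held log2 CPM per library. It also held the authors' own comparison, with log2 fold changes, a likelihood ratio score and p-values before and after adjustment, from a model not stated in the labels. Deposited log2 values bottomed out at -3.35 (0.0978 CPM), which from the values is a constant present in all of them. Subtracting it on the linear scale gave whole reads for 100% of 118584 values, within a relative tolerance of 1e-06. Coordinates are those of the deposited table, shown from base 1. Counted lengths mostly equalled whole gene spans.

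Because deposited values were on a log2 scale, limma 3.58.1 in R 4.3.3 (trended prior variance, two-sided, Benjamini-Hochberg adjustment, threshold 0.05) was run on log2(CPM + 1). This scale understates changes of low genes. A gene was tested if it had at least 10 reads, after scaling to the median library total, in 3 libraries and 15 reads over all libraries, which left 12276. The script was tested on simulated data. Same-numbered libraries deviated together from their group means (correlation across genes 0.784, 0.790 and 0.793). The numbers in the titles were therefore taken to pair the samples, although the labels name no shared animal or day. Correlations for other numbers were -0.473 to -0.336. Deviations from a group mean sum to 0, so these are negative on average where same-numbered ones are positive. They are no separate evidence of pairing. Alternatives were the replicate block, median-of-ratios scaling, no filter, a CPM of 1 in 3 libraries, a pseudocount of 0.1, the deposited log2 values, limma-voom on the recovered reads, and leaving out each library or pair. SEs of the blocked fit lean on a variance shared between genes. Intervals and floors cover counting error only.

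The members and all gene lists were chosen with earlier results of these data known. Genes described in full were, per role, those with the largest and the smallest log2 difference, Psme1, Psme2, Psmb5, Psmb6, Psmb7 and the 10 with the lowest blocked p. Values of Psma7, Psma8 and Psmg1, which lie outside that rule, and the ratios were added after values were seen. The plan for the roles placed Psmf1 outside the letters of the rule, and the rule matches it, so it was kept as a member. Levels per length used the principal transcript of GENCODE mouse release 21, the longest where a gene had several, and promoters came from RefSeq, build GRCm38.p6.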

Additional observations from a re-analysis of the deposited data

How the results depend on the processing

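The limma count for all genes was 53 unpaired, 31 with no filter, 9 to 30 with a library left out, and 2527 with the replicate block. For members it was 1 unpaired, 0 to 1 with a library left out, and 12 with the replicate block. The blocked count of lower genes was 911 with no filter, against 1374. The median log2 difference over members was 0.040 to 0.101 with a library left out and 0.030 to 0.072 with a pair left out, and stayed positive in all alternatives run. Under median-of-ratios scaling 15 members rose in the blocked fit, with 1289 genes higher and 1281 lower. The blocked counts of members were 8 to 12 higher and 0 to 1 lower with a pair left out. Those of all genes were then 850 to 1067 higher and 942 to 1212 lower. The lower member, Psmd9, was lost without replicate 2. The blocked calls of Psma1, Psma5, Psmd7, Psmd10, Psmd11, Psmd14, Psme1 and Psme2 held in all 9 blocked alternatives, those of Psma7, Psmc2 and Psme2b in 7, and that of Psmd9 in 8. Members that did not pass changed sign in places, and the cause was not tested. With a library left out of the unpaired fit their log2 differences ran as follows: Psma8 -0.2536 to 0.1553, Psmb1 -0.0066 to 0.0435, Psmb3 -0.0407 to 0.0738, Psmb5 -0.0333 to 0.1133, Psmb6 -0.1025 to 0.0041, Psmb7 -0.0956 to 0.0328, Psmc1 -0.0005 to 0.0865, Psmc3 -0.0507 to 0.0632, Psmc3ip -0.0517 to 0.1615, Psmc4 -0.02 to 0.045, Psmd4 -0.0404 to 0.0506, Psmd5 -0.0102 to 0.1474, Psmd6 -0.0061 to 0.0728, Psmd8 -0.0563 to 0.0218, Psme3 -0.0183 to 0.1204, Psmf1 -0.1571 to 0.097 and Psmg3 -0.0072 to 0.1486. With a pair left out of the blocked fit the ranges were Psma8 -0.1939 to 0.0453, Psmb1 -0.0254 to 0.0426, Psmb5 -0.0199 to 0.0745, Psmc3 -0.0009 to 0.0305, Psmc4 -0.0124 to 0.0588, Psmd4 -0.0109 to 0.0563, Psmd8 -0.0256 to 0.0015 and Psmf1 -0.0824 to 0.0213. Psmc4 was -0.0094 without replicate 1. Psmd8 was 0.0012 under median-of-ratios scaling in both fits.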

Other observations

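Several members share a start region with a gene read in the opposite direction, with starts at most 1000 bases apart in the table. For Psmd13, a lid subunit, the neighbour 85 bases away was Sirt3, a mitochondrial deacetylase, which fell from 52.2 ± 6.42 to 38.1 ± 0.659 CPM (SD, n = 3, log2 difference -0.44, limma adjusted p 0.000192 blocked and 0.153 unpaired), while Psmd13 had a difference of -0.069. Dnajc2, a ribosome-bound chaperone 118 bases from Psmc2, rose by 0.14 (limma adjusted p 0.0148 blocked and 0.514 unpaired), beside 0.12 for Psmc2. Rnf31, a ubiquitin ligase subunit of the TNF receptor pathway 689 bases from Psme2, had a difference of 0.033 and did not pass, beside 0.42 for Psme2. Mrpl32 (0.036, 205 bases from Psma2), Ftsj3 (0.059, 383 bases from Psmc5), Ss18l1 (0.15, 19 bases from Psma7) and Cep76 (-0.16, 263 bases from Psmg2) did not pass either.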
